A study of Amphimedon queenslandica with 144 samples.

Results

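The 80 gene models described here come from the sponge Amphimedon queenslandica. Their median transcript level was lower in seawater larvae of 3.5 h than in larvae collected 0.5 h after emergence from the mother. At 10 h in seawater it was close to that of 3.5 h. Levels are given as CPM, the count of a gene divided by the total of that animal and scaled to the same total in every animal, and differences are in log2(CPM + 1). Of 44016 gene models in a table of 47411 features, 7598 had a median of 10 CPM or more at 0.5 h. Of these, 2976 also differed by no more than 0.5 log2 units between seawater larvae of 10 h and of 3.5 h, and between 27 settled post-larvae and 36 larvae still swimming near an alga after induction at 5 or 8 h. The 80 with the largest fall from 0.5 h to 3.5 h in seawater were taken. The members were thus chosen by their measured fall to 3.5 h, their small difference between 3.5 and 10 h in seawater and their flatness across settlement. The seawater ages between 3.5 and 10 h were not part of the choice. The values used for the choice are given below as description without a test.

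Transcripts were counted in 144 single animals by CEL-Seq2, which tags and counts the 3′ ends of polyadenylated RNA, so that a level stands for tagged transcript ends of a whole animal. A lower level in a whole animal can mean fewer cells of a type or less RNA per cell, and these cannot be told apart. Each larva of the cue groups was kept alone in a well from 1.5, 3, 5 or 8 h after emergence with a fragment of Amphiroa fragilissima, an articulated coralline alga, or of Mesophyllum sp., a crustose one, or as a control with filtered seawater alone. It was collected 2 h later, at 3.5, 5, 7 or 10 h. Larvae still swimming made up 9 animals at each age with each alga and with seawater. Settled post-larvae had attached to a surface and came from both algae, 14 induced at 8 h (7 per alga) and 13 induced at 5 h (7 with Mesophyllum sp. and 6 with A. fragilissima). The 9 larvae of 0.5 h had been given no cue, so that age and the time in a well cannot be told apart in any comparison with them.

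Sponge larvae of this species are brooded by the mother, swim for hours after release without feeding, and become able to settle only some time after emergence. Coralline algae are known to induce settlement, after which the animal attaches and metamorphoses. The files give no gene names, and the RefSeq gene table used here held none of the identifiers. The members are for that reason described by identifier and by their levels, without roles or sequences.

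Totals ran from 541737 to 4692279 counts per animal with a median of 2011368.5. A label named library put each animal in T, K or C, without saying what the letters stand for, and it was taken as a batch in the tests. The seawater larvae of 3.5 h were 4 in K and 5 in T, the larvae of 0.5 h were 5 in K and 4 in T, and 25 of the 27 settled animals were in C. All 80 members passed the low-count filter behind the tests. The highest count of a member was 5524, against a highest count of 8192 in the whole table, and Aqu2.1.27013_001 was the single member with values above 4096, in 7 animals. The labels do not say whether counts have an upper limit, and whether one compressed the high values of Aqu2.1.27013_001 was not tested.

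Together the 80 members took a median of 0.615% of the counts in 54 larvae of 6 groups that the rule did not use (algae at 3.5 and 5 h, seawater at 5 and 7 h), against 1.26% of the counts in the larvae of 0.5 h. The summed level lay between 3715 and 8847 CPM in those 54 larvae, with a median of 6149 CPM, and between 9121 and 14147 CPM in the 9 larvae of 0.5 h, with a median of 12624 CPM. The 54 larvae and the larvae of 0.5 h did not overlap in this sum, but the members were chosen with the larvae of 0.5 h, so the gap is a description. Over all 135 animals after 0.5 h, 1 larva reached the range of the 0.5 h larvae. It was replicate 7 of the larvae swimming near Mesophyllum sp. at 10 h, in library C, at 10244 CPM, and the next highest later animal had 8847 CPM. The same larva had 29 members above their own 0.5 h median, where the 135 later animals had a median of 10 and the larvae of 0.5 h had 12 to 51.

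**Figure D1:**
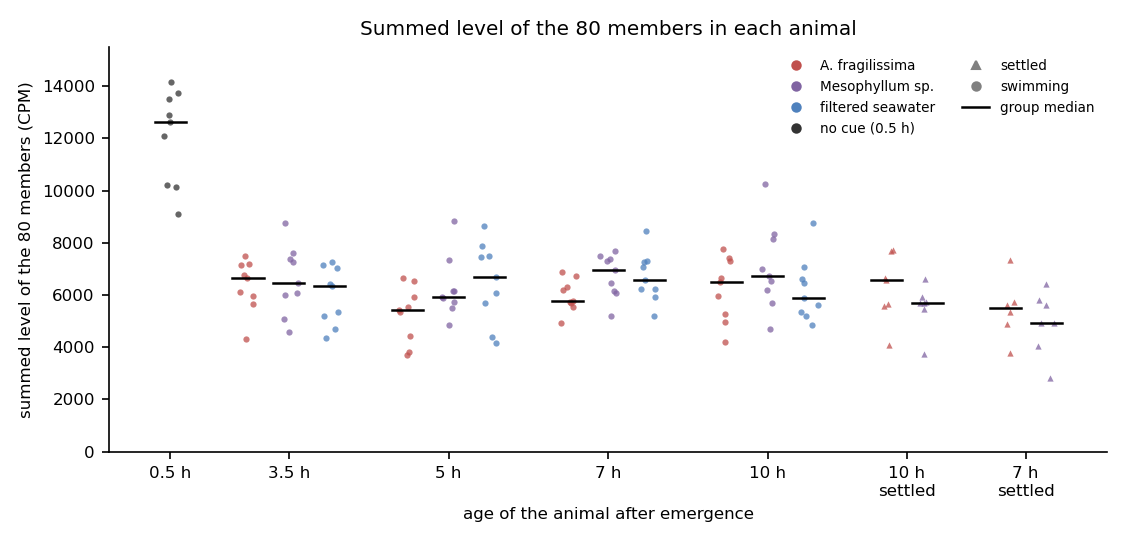
Summed level of the 80 members in CPM for every animal (vertical axis) by age after emergence (horizontal axis), with cue by colour, settled post-larvae as triangles and the group median as a bar. Of the 135 later animals 1, at 10244 CPM, lies within the range of the larvae of 0.5 h, which runs from 9121 to 14147 CPM.

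Few members were lost outright by 3.5 h. The largest fall was 4.11 log2 units and the smallest 0.84, with a median of -1.14, where the 7598 gene models had a median of -0.014. At 3.5 h in seawater 12 members kept less than 25% of their 0.5 h level, 40 kept 25 to 50%, and 28 kept 50% or more, up to 55.9%. The median share kept was 44.1%. At 3.5 h in seawater 3 members had a median of 1 CPM or less, whereas 51 were still at 10 CPM or more. The last members taken were Aqu2.1.14765_001 and Aqu2.1.22527_001, both with a difference of -0.84, and the first not taken were Aqu2.1.32930_001 and Aqu2.1.29077_001, both with -0.83, so that the members just inside and just outside the list hardly differ. With CPM from library sizes scaled by trimmed means of M-values (TMM), 43 of the 80 would be taken again, 14 of them among the 20 largest falls.

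The clearest members were those whose larvae did not overlap between the ages. In 9 of the 80 members all larvae of 3.5 h in seawater lay below all larvae of 0.5 h, and the same held for 1.17% of the 7598 gene models, which is given as background only because the rule used this contrast. Aqu2.1.38434_001 had the largest fall of the 9, with 31.3 CPM in the lowest, 74.0 in the median and 87.9 in the highest seawater larva of 3.5 h, against 146, 289 and 500 CPM in the larvae of 0.5 h. Aqu2.1.26816_001, among the most abundant members, had 161, 236 and 444 CPM in seawater larvae of 3.5 h, against 512, 689 and 1085 CPM at 0.5 h. Aqu2.1.28278_001 had 9.00, 34.8 and 50.5 CPM in seawater larvae of 3.5 h, against 70.2, 96.2 and 132 CPM at 0.5 h. All 54 larvae of the unused groups lay below the lowest 0.5 h larva for Aqu2.1.28278_001, and 49 of 54 did so for each of Aqu2.1.38434_001 and Aqu2.1.26816_001.

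The other members without overlap were Aqu2.1.30909_001, Aqu2.1.31166_001, Aqu2.1.43986_001, Aqu2.1.44009_001, Aqu2.1.42784_001 and Aqu2.1.16465_001, with falls between 1.22 and 0.84 log2 units. Aqu2.1.30909_001 had 94.2, 158 and 242 CPM in seawater larvae of 3.5 h, against 295, 369 and 433 CPM at 0.5 h, and 53 of the 54 unused larvae lay below the lowest 0.5 h larva. Aqu2.1.16465_001 came close to overlap, with at most 712 CPM at 3.5 h in seawater and at least 715 CPM at 0.5 h. All 9 varied little between animals of a group, with a standard deviation within the unused groups of 0.31 to 0.62 log2 units.

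The 3 largest falls belonged to transcripts that were present in some larvae and absent in others at every age. Aqu2.1.16454_001 had 0, 0 and 26.1 CPM in the lowest, median and highest seawater larva of 3.5 h, against 0, 16.3 and 36.4 CPM at 0.5 h, and had a count in 4 of 9 larvae at 3.5 h and in 5 of 9 at 0.5 h. A count was also found in 56 of the 135 later animals, the highest at 44.3 CPM in a larva near Mesophyllum sp. at 5 h, above every larva of 0.5 h. Aqu2.1.08385_001 had 0, 0 and 9.73 CPM in seawater larvae of 3.5 h, against 0, 11.7 and 42.1 CPM at 0.5 h, and reached 44.1 CPM in a larva near A. fragilissima at 10 h. The ranges at 3.5 and 0.5 h overlapped in both transcripts. At the level of single larvae, 2 of 9 seawater larvae of 3.5 h had a count of Aqu2.1.08385_001, against 6 of 9 at 0.5 h. Aqu2.1.02229_001 had 0, 0.391 and 23.2 CPM in seawater larvae of 3.5 h, against 0, 13.1 and 44.2 CPM at 0.5 h, with a count in 66 of 135 later animals.

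**Figure D2:**
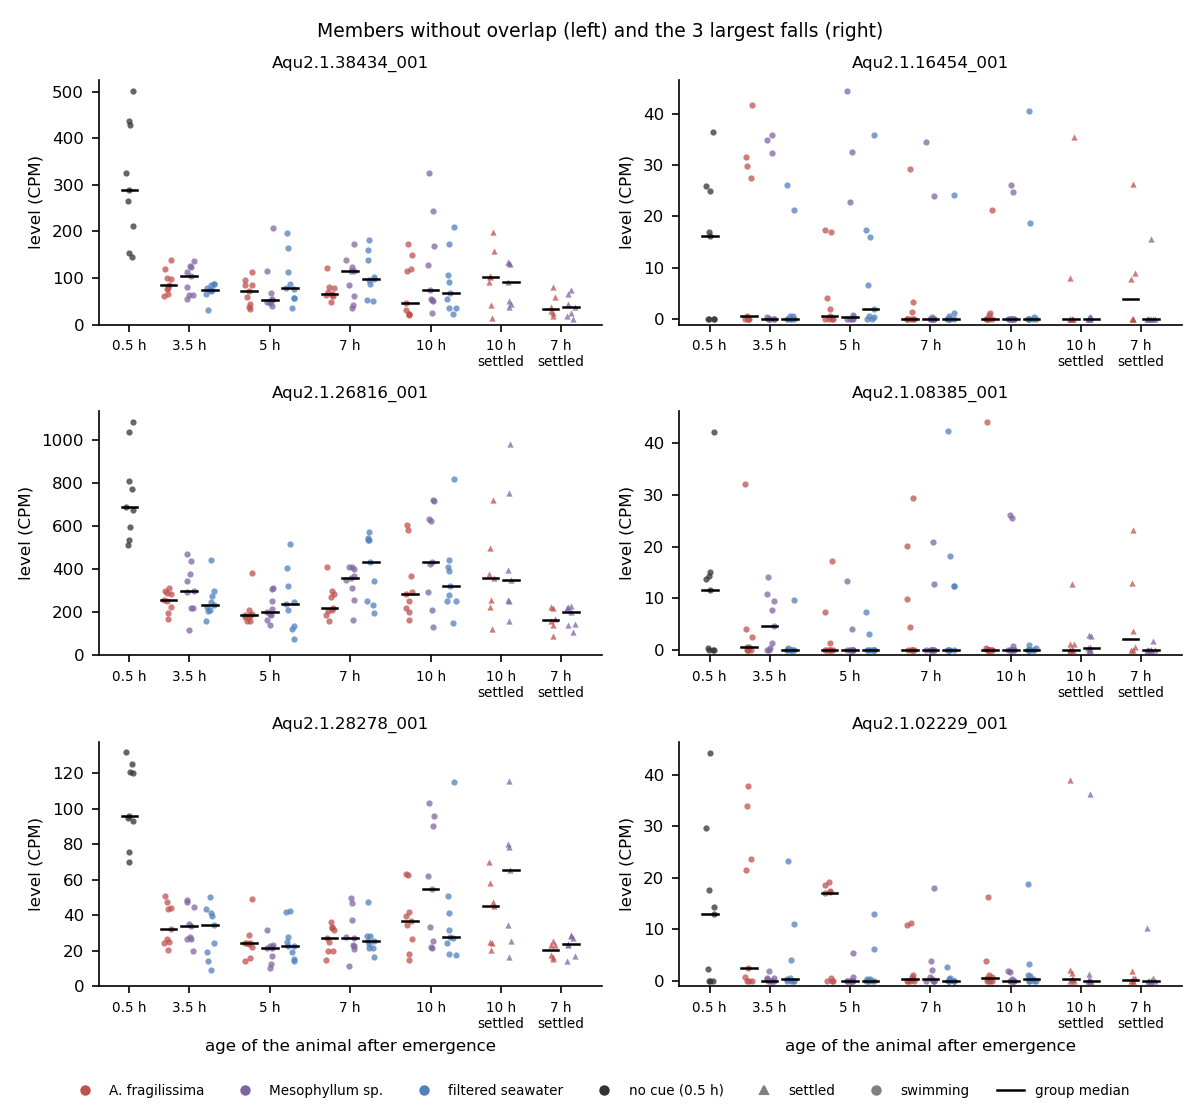
Level in CPM (vertical axes) in every animal by age (horizontal axes) for the 3 largest falls among members without overlap (left) and the 3 largest falls of the whole list (right), with cue by colour and the group median as a bar. On the left the 0.5 h larvae stand above nearly all later ones, and on the right single later animals reach 38.9 to 44.3 CPM, near or above the 0.5 h maximum.

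Most other members among the 20 largest falls also spread widely. Aqu2.1.37883_001 was the exception among the first 5, with 0, 2.15 and 23.1 CPM in seawater larvae of 3.5 h, against 8.56, 28.1 and 37.3 CPM at 0.5 h, and 3 of 135 later animals were above its 0.5 h median. Aqu2.1.36490_001 had 2.94, 9.34 and 21.0 CPM at 3.5 h in seawater, against 11.9, 54.4 and 81.2 CPM at 0.5 h, and no later animal exceeded its 0.5 h median. Aqu2.1.43769_001 had 10.7, 32.4 and 124 CPM at 3.5 h in seawater, against 74.2, 100 and 201 CPM at 0.5 h, and 51 of 54 unused larvae lay below the lowest 0.5 h larva. All 3 were lower at 3.5 h in most larvae, with overlap of the ranges. In Aqu2.1.43769_001 the highest seawater larva of 3.5 h lay above the 0.5 h median.

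By contrast, Aqu2.1.11770_001, Aqu2.1.28568_001, Aqu2.1.29394_001, Aqu2.1.06878_001 and Aqu2.1.18314_001 had between 20 and 37 later animals above their 0.5 h medians. Aqu2.1.28568_001 ranged from 0 to 229 CPM among seawater larvae of 3.5 h and from 2.69 to 256 CPM at 0.5 h, and reached 302 CPM in the larva near Mesophyllum sp. at 10 h that had the highest summed level. Aqu2.1.44088_001, Aqu2.1.22605_001, Aqu2.1.24009_001 and Aqu2.1.08729_001 also had larvae of 3.5 h within the 0.5 h range. The remaining members of the first 20, Aqu2.1.29952_001, Aqu2.1.41802_001 and Aqu2.1.08745_001, had medians of 17.1, 3.46 and 6.63 CPM at 3.5 h in seawater and of 53.9, 12.4 and 21.1 CPM at 0.5 h, with overlap in each.

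Within the 6 unused groups the members varied more between animals than most gene models. The standard deviation of log2(CPM + 1) had a median of 0.94 over the members (0.31 to 2.61) and of 0.48 over the 7598 gene models. It exceeded 1 in 33 of 80 members (41.2%), against 917 gene models (12.1%). It exceeded 1.5 in 17 members (21.2%), against 323 gene models (4.25%). The first 20 members had a median of 1.53, with 15 above 1, and the other 60 had a median of 0.81, with 18 above 1. The 33 members above 1 had a median of 18.3 CPM at 0.5 h, the other 47 had 87.3 CPM and the gene models had 42.6 CPM. The part of level in the spread was not tested, nor was the part of choosing the largest falls, which can favour variable transcripts.

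**Figure D3:**
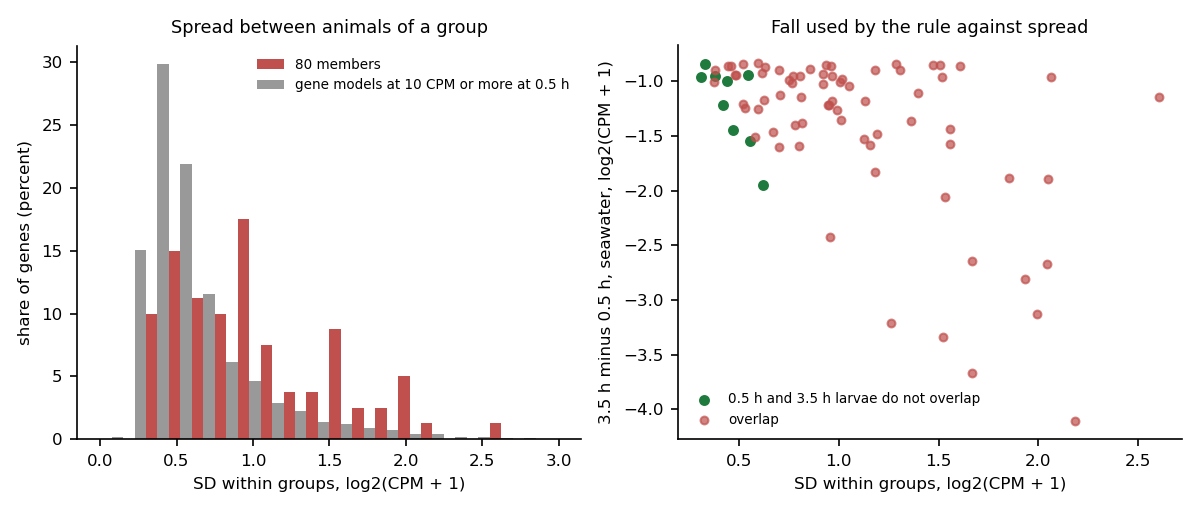
Left, share of genes in percent (vertical axis) by standard deviation between animals of a group in log2(CPM + 1) over 6 groups the rule did not use (horizontal axis), for the 80 members and for 7598 gene models, of which 11 above 3 are not drawn. Right, for each member, 3.5 h minus 0.5 h in seawater (vertical axis) against the same standard deviation (horizontal axis); the 9 members without overlap lie between 0.31 and 0.62, and the largest falls lie mostly beyond 1.

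The most abundant members by tag counts were Aqu2.1.27013_001, Aqu2.1.16465_001, Aqu2.1.41608_001, Aqu2.1.23814_001 and Aqu2.1.26816_001. Aqu2.1.27013_001 had 216, 792 and 1619 CPM in seawater larvae of 3.5 h, against 1283, 1572 and 1967 CPM at 0.5 h. Aqu2.1.41608_001 had 168, 438 and 672 CPM at 3.5 h in seawater, against 422, 1045 and 1409 CPM at 0.5 h. Aqu2.1.23814_001 had 223, 399 and 557.0 CPM at 3.5 h in seawater, against 557, 725 and 1004 CPM at 0.5 h, so that 1 seawater larva of 3.5 h just reached the lowest larva of 0.5 h.

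Larvae kept with an alga until 3.5 h were also below the larvae of 0.5 h, which they share as the starting point with the seawater larvae. The median was lower in 73 of 80 members with A. fragilissima and in 79 with Mesophyllum sp., with median differences of -0.96 and -1.04 log2 units. Of all 7598 gene models 53.6% and 53.4% were lower, with median differences of -0.042 and -0.035. All larvae lay below all larvae of 0.5 h in 12 members with A. fragilissima, against 1.45% of gene models, and in 7 members with Mesophyllum sp., against 0.882%. Within library K the seawater larvae of 3.5 h had a lower median than the larvae of 0.5 h in 75 members (median -1.16), against 47.8% of the gene models, and within library T in 76 (median -1.19), against 54.4%. These are the larvae by which the rule chose the members, so the split gives the values per library and no independent support. TMM-scaled CPM gave a median of -1.16 and a lower level in all 80, with -0.041 over the 7598 models.

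Later medians seldom returned to the 0.5 h level. Seawater larvae of 5 and of 7 h were below the 0.5 h median in 79 members each, against 52.1% and 43.9% of the 7598 gene models. The rule did not use these 2 ages, but it chose the members with the larvae of 0.5 h, which fixes part of this difference. Relative to seawater larvae of 3.5 h, the members had a median difference of 0.19 log2 units at 5 h and 0.19 at 7 h. At these ages 63 and 54 members were within 0.5, and the share of gene models within 0.5 was not computed. The members were chosen by low medians in the seawater larvae of 3.5 h, which can set part of these differences. In 53 members the median was below that of 0.5 h in all 16 later groups, against 9.44% of the gene models, and seawater at 3.5 and 10 h and both algae induced at 5 and 8 h, swimming and settled, were among the groups the rule used. Of the 1280 medians of a member in a later group, 41 were not below the 0.5 h median. On the log2 scale Aqu2.1.44088_001 gave the largest such excess, with a median of 41.9 CPM in larvae near A. fragilissima at 3.5 h against 10.7 CPM at 0.5 h.

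**Figure D4:**
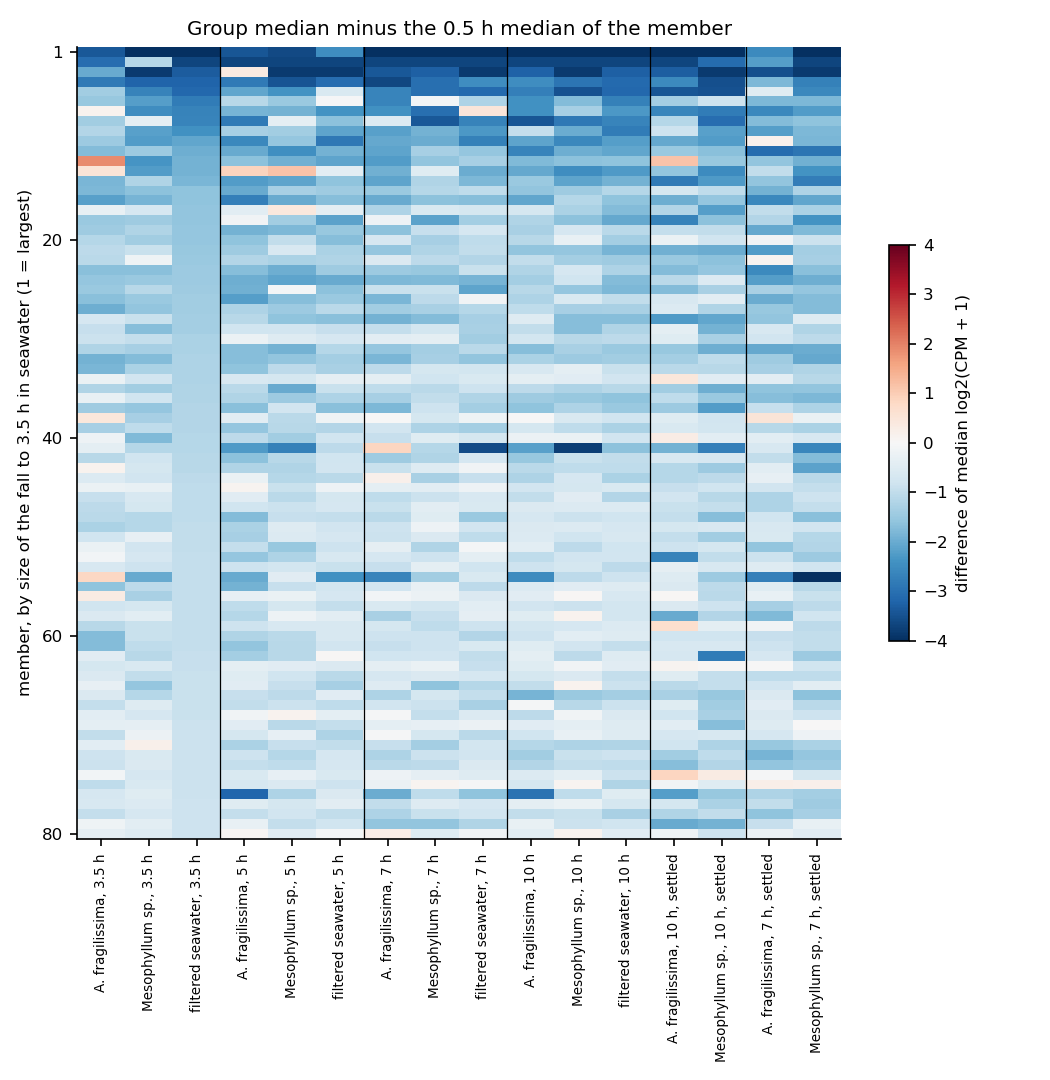
Median log2(CPM + 1) of each of the 80 members (rows, ordered by the fall the rule used) in 16 later groups (columns), minus the median of the same member at 0.5 h; blue is lower and red is higher than at 0.5 h. Of 1280 cells 41 are not below 0, and 53 members have no such cell. The cells are unevenly divided over the groups: most lie in groups kept with A. fragilissima, and few lie in seawater groups. The youngest and the oldest seawater groups could hold none, because the rule sets their medians below those of 0.5 h. Seawater also has fewer groups than either alga. Whether the cue plays a part in this division was not tested.

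Between seawater larvae of 7 and of 5 h no member was called by edgeR's quasi-likelihood test (adjusted p below 0.05, Benjamini-Hochberg over 14950 features), where 0.227% of all features were called. Unadjusted p was below 0.05 for 6 members, and DESeq2 called 0. The median difference of the members was -0.06 log2 units, against 0.01 over all features.

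Larvae swimming near A. fragilissima had lower levels of 6 members than seawater larvae after induction at 3 and 5 h, and of none had they higher levels. The 6 were 7.5% of the members, where 3.16% of all features were called and 1.79% were lower. Aqu2.1.44077_001 had 7.90, 20.1 and 71.0 CPM in the lowest, median and highest of 18 larvae with the alga, against 10.0, 33.2 and 108 CPM in 18 seawater larvae, a fall of 1.09 ± 0.22 log2 units (SE, edgeR adjusted p = 0.000767). The ranges overlapped widely. The difference was -1.30 within library K and -0.41 within library T, and in T it was not called (adjusted p = 0.852).

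Aqu2.1.19532_001, Aqu2.1.41608_001 and Aqu2.1.38430_001 fell by 0.78 ± 0.24, 0.64 ± 0.18 and 0.62 ± 0.14 log2 units (SE, edgeR adjusted p = 0.0458, 0.0206 and 0.00393). Aqu2.1.38430_001 had a median of 199 CPM with the alga, against 289 CPM in seawater. Aqu2.1.31166_001 and Aqu2.1.30909_001, named here after their values were seen, fell by 0.56 and 0.50 log2 units and made up the 6. Both belong to the members without overlap between 3.5 and 0.5 h, so that with this alga their levels lay still further below those of 0.5 h. The count was 2 within library K and 0 within library T. Over all members the median difference was -0.23 log2 units, against -0.003 over all features, and 56 of 80 were below 0.

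With Mesophyllum sp. against seawater at the same ages no member was called, where 0.0268% of all features were called. Unadjusted p was below 0.05 for 4 members and DESeq2 called 0. The median over the members was -0.09 log2 units, against 0.002 over all features.

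Set against Mesophyllum sp. after induction at 1.5 and 3 h, larvae near A. fragilissima differed in 5 members (6.25%, against 2.03% of all features), of which 4 were lower (1.32% of all features) and 1 was higher (0.716%). Aqu2.1.30909_001 had 74.98, 117 and 210 CPM with A. fragilissima, against 112, 156 and 294 CPM with Mesophyllum sp., a fall of 0.50 ± 0.12 log2 units (SE, edgeR adjusted p = 0.00909). Aqu2.1.31166_001 and Aqu2.1.38430_001 fell by 0.51 ± 0.11 and 0.53 ± 0.14 log2 units (adjusted p = 0.00296 and 0.0247). All 3 were also lower with A. fragilissima than with seawater, although the A. fragilissima larvae induced at 3 h entered both comparisons. Aqu2.1.43769_001 fell by 0.95 ± 0.27 log2 units (adjusted p = 0.034), with medians of 20.9 CPM and 25.3 CPM, and within library T its difference was 0.13, of the opposite sign.

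Aqu2.1.02229_001, one of the transcripts present in some larvae only, was the member that was higher with A. fragilissima. It had 0, 9.75 and 37.9 CPM in 18 larvae with A. fragilissima, against 0, 0 and 5.43 CPM in 18 larvae with Mesophyllum sp., and a count in 12 larvae against 6. The log2 fold change was 4.61 ± 0.99 (SE, edgeR adjusted p = 0.00233). It was 5.01 within library K, where it was not called (adjusted p = 0.175), and DESeq2 gave no adjusted p. The count of 5 members called was 1 within library K and 0 within library T.

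From 3.5 to 10 h, larvae swimming near A. fragilissima changed in 10 members (12.5%), a share below the 15.9% of all features called in this comparison. Of these 7 were lower, where 6.98% of all features were, and 3 were higher, where 8.92% were. Aqu2.1.44088_001 had 0.69, 2.46 and 12.0 CPM at 10 h, against 0, 41.9 and 91.5 CPM at 3.5 h, a fall of 3.67 ± 1.13 log2 units (SE, edgeR adjusted p = 0.0145). At 3.5 h 4 larvae had 5.22 CPM or less and 5 had 41.9 CPM or more. Aqu2.1.16039_001 fell by 2.71 ± 0.95 log2 units (adjusted p = 0.0355), with a median of 6.63 CPM at 10 h against 76.6 CPM at 3.5 h.

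Aqu2.1.18314_001 and Aqu2.1.40053_001 fell by 2.64 ± 0.92 and 2.11 ± 0.45 log2 units (SE, edgeR adjusted p = 0.0352 and 0.00018). The medians of Aqu2.1.40053_001 were close, 48.2 CPM at 10 h against 52.7 CPM at 3.5 h, and 2 larvae of 3.5 h stood at 445 and 668 CPM. Aqu2.1.41626_001, Aqu2.1.38430_001 and Aqu2.1.30909_001 rose by 1.00 ± 0.30, 0.83 ± 0.21 and 0.72 ± 0.17 log2 units (adjusted p = 0.0117, 0.00177 and 0.00103). Aqu2.1.30909_001 had 155, 236 and 342 CPM at 10 h, against 77.6, 103 and 202 CPM at 3.5 h. Its difference was 1.17 within library K and -0.13 within library T. The count of called members was 1 within library K and 0 within library T.

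Near Mesophyllum sp. the same span of age changed 2 members, where 6.17% of all features were called, 2.90% higher and 3.28% lower. The choice of the members can set part of this share in the same way. Aqu2.1.38506_001 rose by 1.51 ± 0.45 log2 units (SE, edgeR adjusted p = 0.025), with 10.7, 19.2 and 47.04 CPM at 10 h, against 3.49, 6.01 and 12.9 CPM at 3.5 h. Aqu2.1.13092_001 fell by 1.05 ± 0.32 log2 units (adjusted p = 0.0325), with 7.87, 24.3 and 33.03 CPM at 10 h, against 1.85, 66.6 and 120 CPM at 3.5 h. Both calls were lost without the low-count filter (adjusted p = 0.0608 and 0.0781) and with the compared groups fitted alone (0.117 and 0.734), where Aqu2.1.13092_001 had a difference of -0.34. Within library T the differences were 1.44 and -0.31, and neither was called. Age and library were partly confounded in this comparison. The larvae of 10 h were 4 in library T, 0 in K and 5 in C, and those of 3.5 h were 3, 5 and 1. The count of 2 was 4 with DESeq2 and 4 without a library term. The change with age near A. fragilissima minus that near Mesophyllum sp. was called by edgeR in 0 members (0.0134% of all features). Unadjusted p was below 0.05 for 8 members, and DESeq2 called 1, so that a difference between the algae in ageing of these members was not shown.

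Among settled post-larvae, those induced at 8 h had higher levels of 12 members than those induced at 5 h, and lower levels of none. The 12 were 15% of the members, where 7.34% of all features were called and 3.82% were higher. The flatness condition of the rule pooled both inductions, and it did not use their difference. Of the 9 members without overlap between 3.5 and 0.5 h, Aqu2.1.38434_001, Aqu2.1.26816_001, Aqu2.1.28278_001, Aqu2.1.44009_001 and Aqu2.1.30909_001 were among the 12.

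Aqu2.1.26816_001 had 122, 354 and 982 CPM in 14 post-larvae induced at 8 h, against 88.3, 168 and 230.2 CPM in 13 induced at 5 h, a rise of 1.29 ± 0.22 log2 units (SE, edgeR adjusted p = 2.35e-05). On A. fragilissima the medians were 357 CPM in animals induced at 8 h and 165 CPM in those induced at 5 h, and on Mesophyllum sp. they were 349.8 and 203 CPM, so that both algae had the higher median at 8 h. Aqu2.1.38434_001 had 14.9, 97.3 and 199 CPM after induction at 8 h, against 11.4, 37.1 and 80.2 CPM at 5 h, a rise of 1.32 ± 0.31 (adjusted p = 0.00208). The lowest post-larvae of both inductions lay close together, and the highest ones were further apart.

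Aqu2.1.44077_001 had 20.8, 56.5 and 106 CPM in post-larvae induced at 8 h, against 13.1, 24.3 and 48.3 CPM in those induced at 5 h, a rise of 1.29 ± 0.26 log2 units (SE, edgeR adjusted p = 0.000275). Aqu2.1.19983_001 rose by 1.39 ± 0.43 (adjusted p = 0.0302), with medians of 34.6 and 15.2 CPM. Aqu2.1.28278_001 had a median of 46.4 CPM after induction at 8 h, against 23.4 CPM at 5 h, where the highest of the 13 animals had 28.8 CPM. The 7 others, Aqu2.1.19532_001, Aqu2.1.37551_001, Aqu2.1.32636_001, Aqu2.1.41640_001, Aqu2.1.41608_001, Aqu2.1.44009_001 and Aqu2.1.30909_001, rose by 0.53 to 0.83 log2 units. Of the 13 post-larvae induced at 5 h, 2 were in library T and the others in C, as were all 14 induced at 8 h. The count of called members was 3 within library C and 3 when the settled groups were fitted alone.

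**Figure D5:**
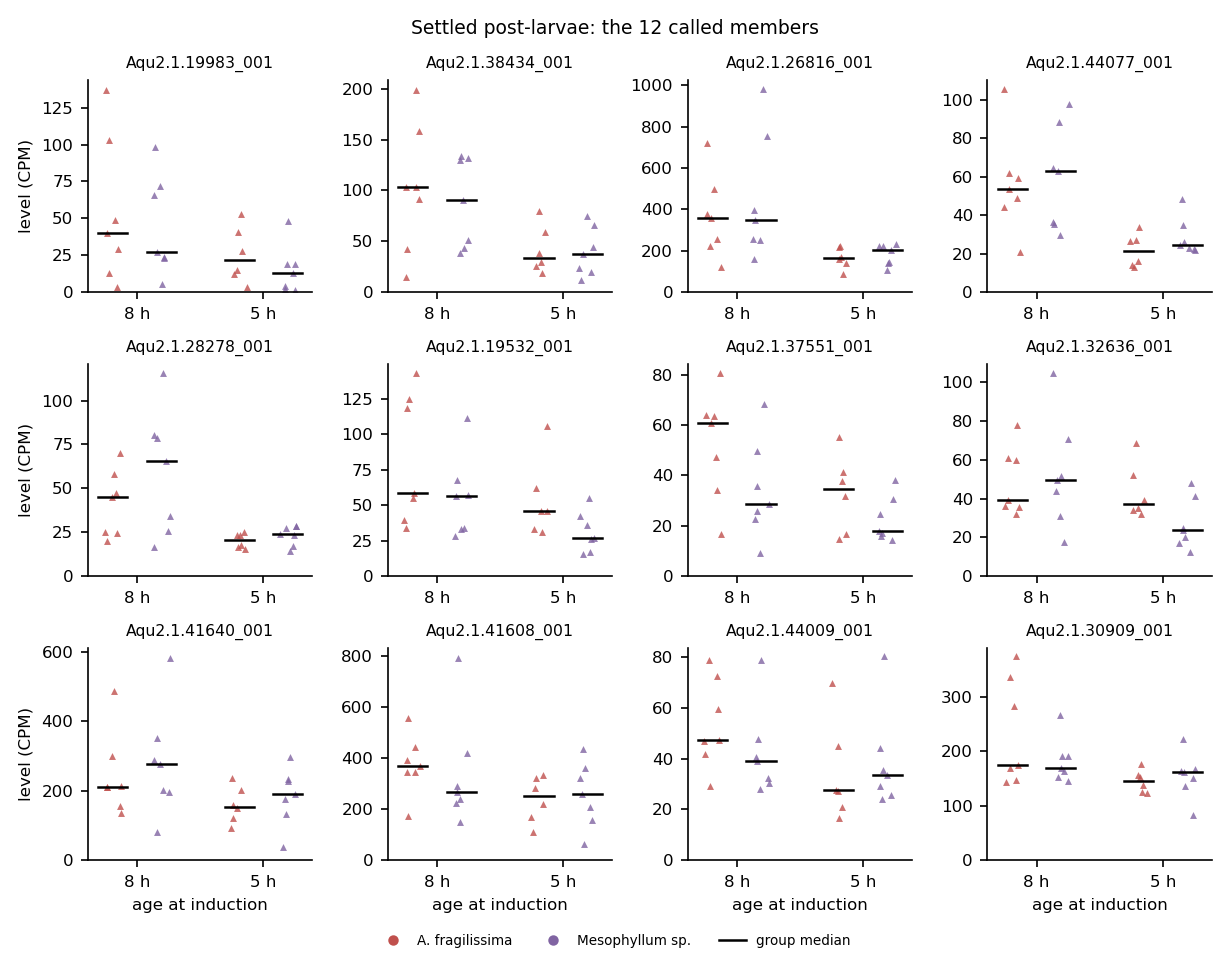
Level in CPM (vertical axes) in each settled post-larva by age at induction (horizontal axes), with alga by colour and the group median as a bar, for the 12 members called between inductions at 8 h and at 5 h, ordered by fold change. Animals induced at 8 h reach higher levels in each panel except that for Aqu2.1.44009_001, where the highest animal was induced at 5 h at 80.3 CPM, against 78.9 CPM for the highest at 8 h.

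Post-larvae on A. fragilissima against those on Mesophyllum sp. differed in no member by edgeR, where 0.428% of all features were called. Unadjusted p was below 0.05 for 13 members, and DESeq2 called 0. The median over the members was 0.21 log2 units, against -0.02 over all features. Over the 9 tests 26 members were called at least once, 6 of them among the 20 largest falls, and Aqu2.1.30909_001 was called in 4, the most of any member.

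The members did not rise and fall as 1 unit from animal to animal. Over the 54 larvae of the unused groups, with group means removed, the 3160 pairs of members had a median correlation of 0.066, and 19 pairs exceeded 0.6. These correlations share the animals and their sequencing depth and are given as description. The tightest were among Aqu2.1.21265_001, Aqu2.1.40651_001 and Aqu2.1.27013_001, with r of 0.92, 0.88 and 0.80. In the lowest larva for Aqu2.1.21265_001, a seawater larva of 5 h, the 3 had 24.2, 74.3 and 228 CPM, and in the highest, a larva near Mesophyllum sp. at 5 h, they had 470, 554 and 1592 CPM. Aqu2.1.44088_001 and Aqu2.1.16039_001, both lower at 10 h than at 3.5 h near A. fragilissima, had r = 0.74.

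Other pairs above 0.6 joined members across the list rather than into closed sets. Aqu2.1.26961_001 had r of 0.69 with Aqu2.1.44077_001, 0.65 with each of Aqu2.1.26816_001, Aqu2.1.38434_001 and Aqu2.1.41640_001, 0.60 with Aqu2.1.23814_001, and 0.63 with Aqu2.1.27013_001 of the tightest 3. Aqu2.1.41608_001 had r of 0.68 with Aqu2.1.41640_001, 0.66 with Aqu2.1.26816_001, 0.64 with Aqu2.1.23814_001 and 0.62 with Aqu2.1.13092_001. Identifiers that follow each other were rare in the list: Aqu2.1.32636_001 and Aqu2.1.32637_001 formed the single adjacent pair, with r = 0.59, and whether they are overlapping models or share reads was not tested. Aqu2.1.38430_001 and Aqu2.1.38434_001 are 4 numbers apart and had r = 0.25.

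Outside the list, the 3 features whose level over all 144 animals was most like the mean of the members were Aqu2.1.18097_001, Aqu2.1.34597_001 and Aqu2.1.30887_001, with Pearson r of 0.66, 0.65 and 0.63. Seawater larvae of 3.5 h were below larvae of 0.5 h in all 3, with differences of -2.11, -1.64 and -1.23 log2 units, as in the contrast the rule used. Settled animals were below swimming ones by more than the 0.5 log2 units the rule allows in all 3, with differences of -0.56, -0.65 and -0.79. Aqu2.1.18097_001 and Aqu2.1.30887_001 were also outside the limit in seawater, with 10 h minus 3.5 h at -0.86 and 0.62.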

How the data were processed

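The deposited file holds raw counts, whole numbers per feature and animal, for 144 animals, with 8192 as the highest value. Per the labels' series text, CEL-Seq2 reads were split by barcode with a public CEL-Seq pipeline and assigned to Aqu2.1 gene models. Neither an aligner nor a build is named in the sources used here. The deposited counts were used as they stand, and 3395 features with another form of identifier stayed in the library totals and tests. The members and lists were chosen with earlier results of these data known, so no direction that the choice fixed is given as support.

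CPM with a pseudocount of 1 on the log2 scale described the members. Counts were tested with edgeR 4.0.16 (quasi-likelihood F test) in R 4.3.3, with the low-count filter by group (14950 features kept, 99.4% of counts), TMM factors of 0.644 to 1.2, a mean for each of 17 groups and a library term, over all 144 animals. Tests were 2-sided, and p was adjusted by Benjamini-Hochberg over all features tested. The 9 comparisons left out those the rule used. The labels give single animals as replicates, so the tests set each difference between groups against the spread between animals. The animals were treated as independent. Total counts limit precision for low members: at the median total of 2011368.5 counts a level of 10 CPM is about 20.1 counts. DESeq2 1.42.0, other scaling, no filter, no library term, the compared groups alone and single libraries were alternatives. The fit was tested on simulated data.

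Members were named by rule: the 20 largest falls, the 5 most abundant, 2 on each side of the limit of 80, up to 4 called members per direction and comparison, neighbouring identifiers, and the 3 most alike features outside the list. Python 3.11.15 with pandas 2.3.3, NumPy 2.4.6 and matplotlib 3.10.9 did the rest.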

Additional observations from a re-analysis of the deposited data

Results flagged for a closer look

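Each result here had 1 animal far from the others of its group, judged by the gap to its nearest neighbour as a share of the group's range. In 65 groups of values examined (the summed level in 17 groups, and the 20 largest falls and most abundant members at 3.5 h in seawater and at 0.5 h) 13 had such an animal. For normally distributed values chance flags about 1 in 20 groups. Here the CPM were not log-transformed, and Aqu2.1.08385_001 and Aqu2.1.02229_001 had medians near 0 at 3.5 h in seawater. The single members were also examined in the larvae the rule used, so the 13 are listed as values only.

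Among the summed levels, 1 settled post-larva on Mesophyllum sp. induced at 8 h had 3748 CPM, below the next at 5472 CPM. At 3.5 h in seawater a larva stood above the rest for Aqu2.1.08385_001 (9.73 CPM), Aqu2.1.02229_001 (23.2 CPM), Aqu2.1.28568_001 (229 CPM, against 13.3 CPM in the next) and Aqu2.1.29394_001 (141 CPM). The same was seen there for Aqu2.1.18314_001 (25.03 CPM), Aqu2.1.43769_001 (124 CPM, against 42.9 CPM in the next) and Aqu2.1.26816_001 (444 CPM). A larva stood below the rest for Aqu2.1.38434_001 (31.3 CPM) and Aqu2.1.16465_001 (257 CPM). At 0.5 h the highest larva stood apart for Aqu2.1.08385_001 (42.1 CPM), Aqu2.1.28568_001 (256 CPM) and Aqu2.1.08729_001 (143 CPM, against 30.4 CPM in the next). Medians, which the list rests on, do not depend on how far out a single high animal lies. In transcripts absent from some larvae they can still turn on a single larva. Aqu2.1.16454_001 had a count in 5 of 9 larvae at 0.5 h, with a median of 16.3 CPM. At 3.5 h in seawater it had a count in 4 of 9, with a median of 0 CPM.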

How the results depend on the processing

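The list itself depended on its settings. Of the 80 members, 43 would be taken again with TMM-scaled CPM, 36 with group means, 52 with a pseudocount of 5, 50 with a minimum of 5 CPM, 21 with a flatness window of 0.25, 27 with a window of 1, 37 with library K alone and 25 with library T alone for the seawater contrasts. A pseudocount of 0.5 shared 76 and a minimum of 20 CPM shared 59. The cause of these shifts was not tested beyond their construction, since other windows and levels admit other features.

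Within library T no member was called (0) between A. fragilissima and seawater, between A. fragilissima and Mesophyllum sp., or between 10 and 3.5 h with either alga. Within library K the counts were 2, 1 and, for 10 against 3.5 h with A. fragilissima, 1, and within C the settled comparison gave 3. These fits hold fewer animals. Without the low-count filter the counts were 6 (10 against 3.5 h, A. fragilissima), 0 (Mesophyllum sp.) and 6 (settled). The settled groups fitted alone gave 3, and the Mesophyllum sp. ages fitted alone 1. For those ages the count was 4 with no library term and 4 with DESeq2, and DESeq2 called 1 member in the difference of ageing. With the replicate number as a block, 3 members were called between the algae and 5 between settled groups, and other counts stayed within 1.5 times. Whether numbers shared between groups pair animals was not settled. The 134 same-numbered pairs had a median correlation of deviations of 0.0079 (-0.21 to 0.41), with 27 pairs above 0.1. In none of 8 comparisons did every pair exceed 0.1, but this cannot exclude a pairing of some animals. RLE scaling moved no count beyond 1.5 times. Nor did leaving out 2 animals that stood apart, the shallowest larva and the later larva with the highest summed level, an alternative chosen after seeing the data.

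For the called members named by rule, 130 of the refitted values kept direction and call, 52 kept direction without the call, and 2 reversed, both within library T: Aqu2.1.30909_001 with age near A. fragilissima (-0.13) and Aqu2.1.43769_001 between the algae (0.13). Depth limits the low members most.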
